A study of Mus musculus with 4 samples.

Results

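Interferon-stimulated antiviral effector genes were followed in RNA-seq of primary mouse astrocytes, glial cells of the brain grown here in culture. The set held 37 genes, matched by symbol, and all 37 were found among the 25393 genes listed. The members were chosen as interferon-induced effectors from a comparison of KO and WT libraries in these same data, so the differences between the labels are described below and carry no test. Cells were prepared from cortex and hippocampus of C57BL/6 pups at postnatal day 1, from 2 mice per isolation, and kept for about 7 days, and plates were shaken at 260 rpm and collected 24 h later. There were 2 libraries labelled WT and 2 labelled KO, the KO being a constitutive deletion of Tet1 in every cell of the animal and not in astrocytes alone. Tet1 encodes an enzyme that oxidizes 5-methylcytosine in DNA. No culture was described as given interferon or a virus, so the name of the set rests on background knowledge and not on a treatment. Each isolation mixed animals, and the labels do not say whether libraries of one genotype came from separate litters.

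Interferons are secreted when a cell senses viral nucleic acid, and they act on nearby cells through surface receptors. Type I interferon receptors signal through the kinases Jak1 and Tyk2, which activate transcription factors of the STAT family. A complex that holds Stat2 and Irf9 then binds a short DNA element, the interferon-stimulated response element, in front of its target genes. The products of those genes block viral entry, translation, replication or release, and astrocytes are known both to make interferon and to respond to it.

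Values are normalized read counts, that is, the reads on a gene divided by a size factor of the library, and they do not correct for gene length. Between 18749610 and 22673555 reads fell on genes per library, and the floor of 3 reads taken as detection corresponded to 2.70 to 3.21 normalized counts. Tet1, the targeted gene, had 266 and 121 normalized counts in WT against 173 and 463 in KO. A count over the whole gene includes reads from any exon that the deletion left. Since Tet1 was not lower there, every direction below rests on the label. Xist, the transcript of the inactive X chromosome, also moved with the label, at 8.54 and 0.92 normalized counts in WT against 2896 and 13367 in KO, so sex and genotype cannot be told apart. The astrocyte marker Gfap had 58004 and 67297 normalized counts in WT against 174853 and 9945 in KO, so the KO libraries were unlike each other in marker content.

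The short DNA element that interferon complexes bind was present in some of the promoters, and these sequences are shown first. The choice of members did not read promoter sequence. It did take genes known to be induced by interferon, which acts through this element, so its presence is no independent support. A copy was counted where GAAA occurred as a pair with any 2 bases between, on either strand, so that on the reverse strand it reads as a pair of TTTC. Windows ran from 250 bases before to 50 bases after each annotated start, from RefSeq on GRCm38.p6. The stretches below are written 5′ to 3′ along the strand of the gene, with the matched words and the bases between them in capitals.
Isg15, chr4:156200851-156200920, minus strand: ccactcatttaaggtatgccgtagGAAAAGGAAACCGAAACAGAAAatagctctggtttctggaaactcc
Ifit1, chr19:34640761-34640837, plus strand: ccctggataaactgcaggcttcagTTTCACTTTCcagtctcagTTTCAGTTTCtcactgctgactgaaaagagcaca
Ifit3, chr19:34583349-34583440, plus strand: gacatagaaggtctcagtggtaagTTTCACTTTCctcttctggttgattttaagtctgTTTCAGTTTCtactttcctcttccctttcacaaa
Rsad2, chr12:26456539-26456596, minus strand: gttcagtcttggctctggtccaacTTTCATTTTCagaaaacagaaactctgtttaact
Bst2, chr8:71537563-71537626, minus strand: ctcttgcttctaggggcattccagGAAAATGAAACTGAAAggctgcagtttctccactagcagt
Lgals9, chr11:78984946-78985003, minus strand: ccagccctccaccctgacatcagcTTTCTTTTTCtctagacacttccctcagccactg
Trim30a, chr7:104465196-104465253, minus strand: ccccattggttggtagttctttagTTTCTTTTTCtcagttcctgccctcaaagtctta
Ifitm2, chr7:140955974-140956031, minus strand: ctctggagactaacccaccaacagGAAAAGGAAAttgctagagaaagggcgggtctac

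A window was found for 28 of the 37 members, and 11 of those 28 (39.3%) held the pair. Among all 27025 genes with a window, 1079 (3.99%) held it. A looser search, which left out the last base of the second copy, found 14 of the 28 members (50%) against 9.76% of all genes with a window. Isg15 held 3 overlapping pairs that began 78, 72 and 66 bases before the start, and Ifit1 held pairs beginning 104 and 85 bases before it. The stretch of Ifit3 is identical over all 92 bases to that of its duplicate Ifit3b at chr19:34607745-34607836, where the pairs lay 188 and 154 bases before the start in place of 156 and 122. In 4 members, 6 pairs lay just past an annotated start and are given by position only, at bases 14 and 20 in Trim21, 3 and 20 in Ifitm3, 16 in Lgals9 and 3 in a second window of Trim30a. No window was found for Ifi27l2a, Ifi27, Mx2, Parp9, Mx1, Usp18, Rtp4, Tor3a and Parp14. These are matches of letters and do not show that a factor was bound. The members were chosen as interferon-induced genes, so a higher share than over all genes was built into the choice.

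**Figure D1:**
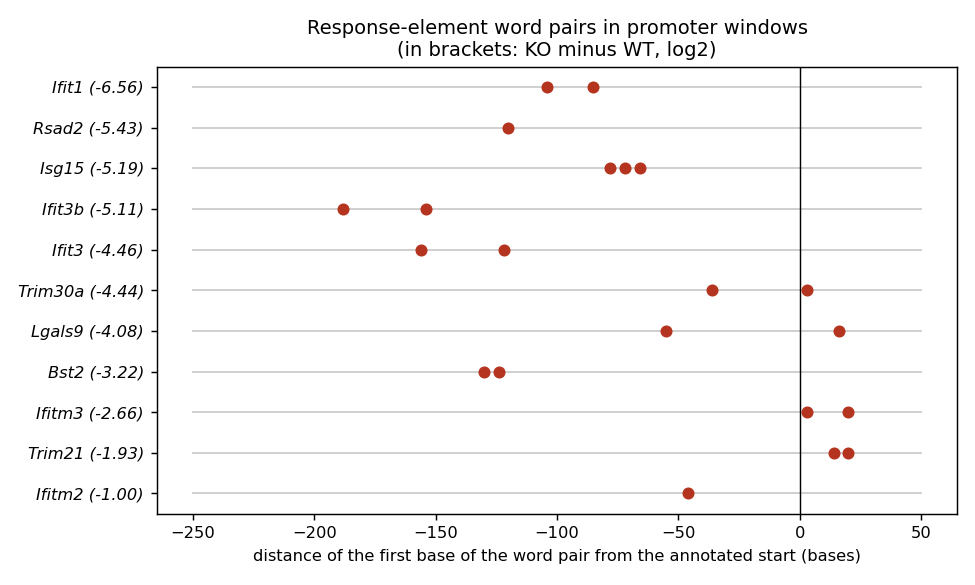
Position of each response-element word pair in the promoter windows of the 11 members that hold one. The horizontal axis gives the distance in bases from the annotated start, each grey line is a window, each point is the first base of a pair, and the bracketed number is the KO minus WT difference on the log2 scale. The 3 points of Isg15 overlap, and the 6 points to the right of the start belong to Trim21, Ifitm3, Lgals9 and Trim30a.

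The mean of the libraries labelled KO was below that of WT for 37 of 37 members, and the share of the WT level that was left ranged from 1.39% for Ifit1 to 70.4% for Ifit2, with a median of 7.64%. For 15 members less than 5% was left, for 20 less than 10%, and for 9 members 20% or more. The 15 include Sp100 and Epsti1, which had 1 read each over both KO libraries and entered the fit only through their WT values. So do the 36 and the 35 members counted next. Both KO libraries lay below both WT libraries for 36 members, Ifit2 being the exception, where 25.4% of the 22094 genes tested did so. On the scale of log2(normalized count + 1) the median difference of the members was -3.66, with quartiles of -4.46 and -2.47, against -0.07 for all genes tested. In limma, a linear model fitted over all genes, 35 members were lower at an unadjusted p under 0.05, where 9.18% of all genes were, and after adjustment over all genes 0% passed, members included. That 0 stands beside 3032 genes at an unadjusted p under 0.05 in limma, 0 genes by adjusted p in edgeR and 1088 in DESeq2. DESeq2, with a p adjusted over all genes, called 29 members lower, where 3.63% of all genes were called lower. Nothing is read from these counts, because the members were chosen on this contrast. Together the members took 0.472% and 0.408% of the reads on genes in WT and 0.0704% and 0.0598% in KO. In bulk RNA, fewer cells of a type and less RNA per cell cannot be told apart.

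**Figure D2:**
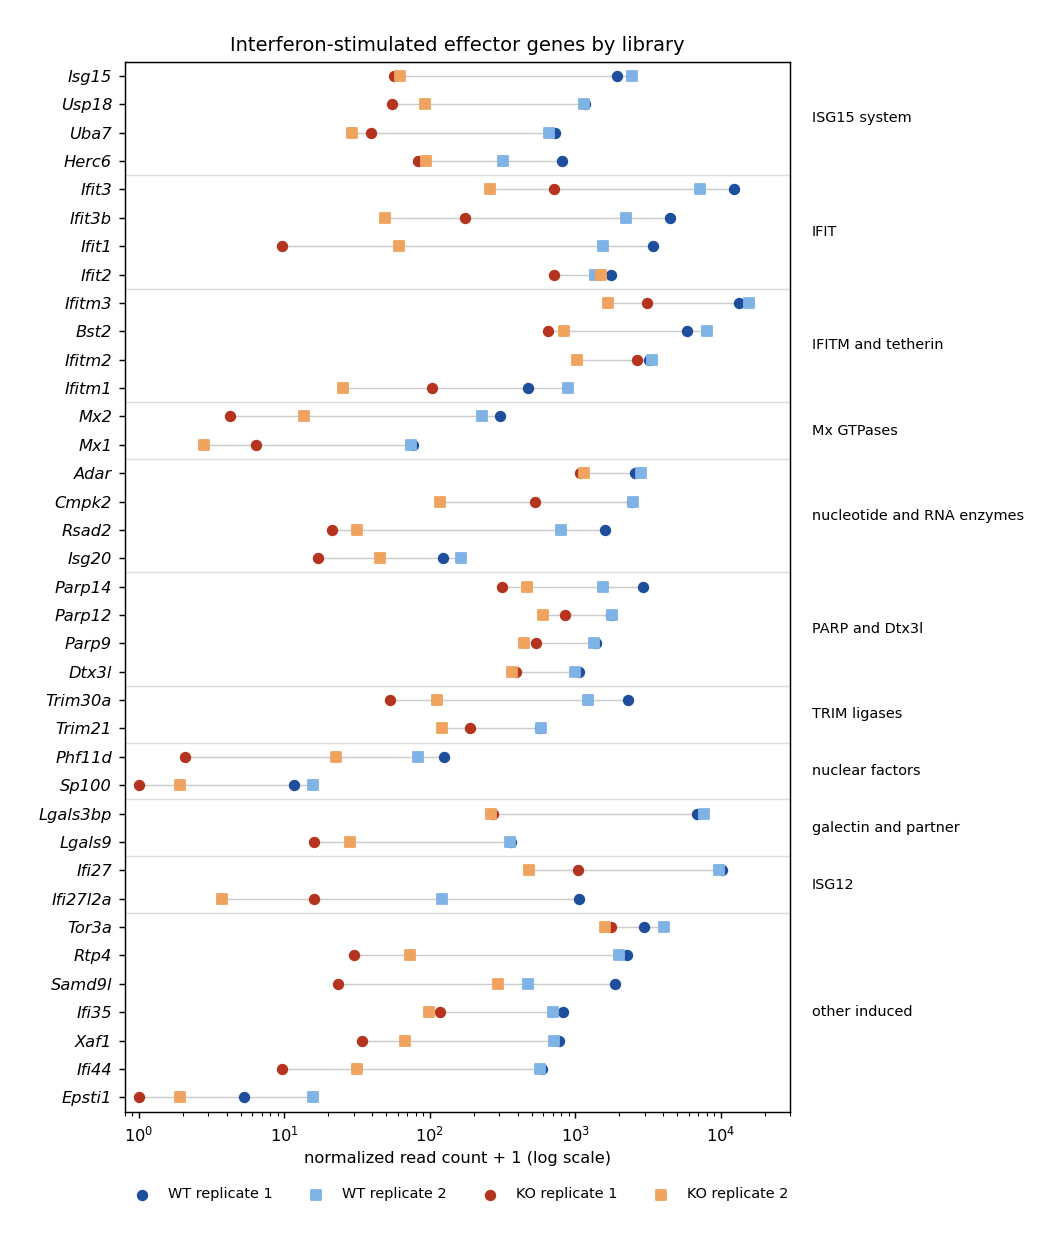
Normalized read count plus 1 of the 37 members in each of the 4 libraries, on a log scale, with genes grouped by role and ordered within a role by their WT mean. Blue points are WT and red or orange points are KO, circles are replicate 1 and squares replicate 2. The KO points lie left of the WT points for all members but Ifit2.

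The ISG15 system attaches the small ubiquitin-like protein Isg15 to other proteins, with Uba7 as its activating enzyme, Herc6 as the mouse ligase and Usp18 as the protease that removes it and also damps the type I receptor. Isg15 had 1944 and 2427 normalized counts in WT against 55.7 and 61.3 in KO. Both pairs of libraries were close and the groups were far apart, with a difference of -5.19 ± 0.33 (log2, standard error, n = 2 libraries a group). Usp18 had 1154 and 1138 normalized counts in WT against 53.5 and 91.0 in KO. Uba7 had 722 and 659 in WT against 38.5 and 27.9 in KO. In these genes the lowest WT library was many times the highest KO library. Herc6 had 811 and 314 normalized counts in WT against 82.4 and 92.8 in KO, and here the WT libraries differed by more than 2-fold while the groups stayed apart. The summed level of these 4 genes per length as FPKM (reads scaled to the length of the gene and to the reads on genes) was 159 and 180 in WT against 4.85 and 6.33 in KO.

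The IFIT proteins bind viral RNA that lacks the host's cap modifications and hold back its translation. Ifit1 had 3426 and 1534 normalized counts in WT against 8.56 and 60.4 in KO, the lowest remaining share of any member at 1.39%. Ifit3 had 12257 and 7201 in WT against 713 and 256 in KO, and Ifit3b had 4493 and 2230 in WT against 172 and 47.8 in KO. All 3 genes were higher in WT replicate 1 than in WT replicate 2, and in none did the groups overlap. Ifit3 and Ifit3b are near copies, and 41.1% of the 75-base words in Ifit3 transcripts also occur in Ifit3b, so the split of reads between them is uncertain. Ifit2 had 1765 and 1367 normalized counts in WT against 715 and 1490 in KO, so that KO replicate 2 lay between the WT libraries. Its difference was -0.59 ± 0.44 (log2, standard error), and -0.06 without KO replicate 1, beside -6.56 ± 0.95 for Ifit1. The 4 genes stand in a row on chromosome 19, with 7111 bases between Ifit2 and Ifit3, so the members with the most and the least of their WT level lost lie in one gene cluster.

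IFITM proteins sit in cell membranes and hinder the fusion of enveloped viruses, and tetherin, the product of Bst2, holds budding virus at the cell surface. Ifitm3 had 13369 and 15565 normalized counts in WT against 3111 and 1679 in KO. Per length it was the highest of all members in WT, at 1043 ± 81.6 FPKM (SD, n = 2), and also in KO, at 165 ± 59.7 FPKM. Bst2 had 5870 and 7966 normalized counts in WT against 647 and 830 in KO, with 10.7% left. Ifitm1 had 471 and 886 in WT against 102 and 24.3 in KO. For these 3 genes the groups did not overlap and WT replicate 2 was the higher WT library. Ifitm2 had 3213 and 3365 normalized counts in WT against 2636 and 1020 in KO, so KO replicate 1 came close to WT, and 55.6% of the WT mean was left. On the log2 scale its difference was -0.32 without KO replicate 2 and -1.69 without KO replicate 1. Of the 75-base words of Ifitm2, 42.0% occur in other genes, so its reads may be shared. Ifitm1, Ifitm2 and Ifitm3 are neighbours on chromosome 7, with 11233 bases between Ifitm2 and Ifitm1 and 39760 between Ifitm1 and Ifitm3.

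Mx proteins are dynamin-like GTPases that trap viral nucleoproteins, and laboratory strains of mice often carry defective alleles, Mx2 being annotated as a polymorphic pseudogene. Mx2 had 301 and 227 normalized counts in WT against 3.21 and 12.6 in KO. Mx1 had 75.8 and 72.6 in WT against 5.35 and 1.80 in KO, where the summed reads were 7 in KO and 150 in WT, a ratio of 4.62% (exact 95% interval 1.83 to 9.76, counting error only). Both were among the lower members per length, Mx1 at 0.960 FPKM in WT, and for both the groups did not overlap.

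Rsad2 encodes viperin, which makes a chain-terminating nucleotide from CTP, and its neighbour Cmpk2 encodes a nucleotide kinase that supplies CTP. The genes lie head to head on chromosome 12, with 12751 bases between them. Rsad2 had 1583 and 795 normalized counts in WT against 20.3 and 30.6 in KO, a difference of -5.43 ± 0.51 (log2, standard error). Cmpk2 had 2458 and 2498 in WT against 527 and 117 in KO. The WT libraries were nearly equal for Cmpk2 and the KO libraries differed by more than 2-fold, the reverse of Herc6. Adar, the RNA-editing deaminase that turns adenosine into inosine in double-stranded RNA, had 2581 and 2828 normalized counts in WT against 1071 and 1146 in KO. Isg20, an exonuclease, had 123 and 162 in WT against 16.1 and 44.2 in KO. The share left was 2.14% for Rsad2, 21.2% for Isg20 and 41.0% for Adar.

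Parp9, Parp12 and Parp14 belong to the ADP-ribosyltransferase family, and Dtx3l is a ubiquitin ligase that works as a partner of Parp9. This was the role with the smallest median difference among those with 4 members, -1.46 on the log2 scale. Parp14 had 2889 and 1542 normalized counts in WT against 314 and 461 in KO. Parp9 had 1375 and 1331 in WT against 534 and 439 in KO, and Dtx3l had 1050 and 990 in WT against 386 and 363 in KO. Parp12 had 1755 and 1795 in WT against 847 and 593 in KO. Replicates were close for Parp9, Dtx3l and Parp12, and the KO libraries kept 36.0% to 40.6% of the WT level without overlap. Parp9 and Dtx3l lie on opposite strands and overlap by 682 bases, so reads there may not be told apart without strand.

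Trim30a and Trim21 are RING-type ubiquitin ligases, Trim21 being also a receptor for antibody-coated virus in the cytosol. Trim30a had 2308 and 1216 normalized counts in WT against 52.4 and 110 in KO. Trim21 had 571 and 577 in WT against 186 and 121 in KO. Neither gene had overlapping groups, and the share left was 4.61% for Trim30a and 26.7% for Trim21. Sp100, a scaffold of nuclear bodies, was near the limit of detection, with 10.7 and 14.7 normalized counts in WT against 0 and 0.90 in KO. Its summed reads were 1 in KO and 26 in WT, a ratio of 3.81% (exact 95% interval 0.0929 to 23.2). Phf11d, a PHD-finger protein of the nucleus, had 125 and 81.8 in WT against 1.07 and 21.6 in KO, so the KO libraries were far from each other.

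Lgals3bp, a secreted glycoprotein that binds galectins, had 6840 and 7612 normalized counts in WT against 269 and 260 in KO. With a difference of -4.76 ± 0.27 (log2, standard error) it was among the members measured with the smallest spread. Lgals9, a galectin, had 357 and 355 in WT against 15.0 and 27.0 in KO. Ifi27, a small protein of mitochondrial and nuclear membranes, had 10142 and 9698 in WT against 1035 and 481 in KO, and stood behind Ifitm3 and Bst2 per length in WT at 331 ± 20.2 FPKM (SD, n = 2). Its neighbour Ifi27l2a, 1927 bases away, had 1055 and 120 normalized counts in WT against 15.0 and 2.70 in KO. Ifi27l2a showed the widest gap between the WT libraries of all members, 3.13 on the log2 scale, while Ifi27 was nearly equal in them.

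Among the remaining members, Rtp4 is a chaperone of membrane receptors that also binds viral RNA, and it had 2259 and 1994 normalized counts in WT against 28.9 and 72.1 in KO. Ifi44 had 586 and 574 in WT against 8.56 and 30.6 in KO, and Xaf1, a pro-apoptotic zinc-finger protein, had 766 and 712 in WT against 33.2 and 66.7 in KO. For Rtp4, 10.5% of the 75-base words are shared with other genes, and for Herc6 11.3%. Rtp4, Ifi44 and Xaf1 had close WT libraries and KO replicate 2 above KO replicate 1. Ifi35 had 815 and 703 in WT against 117 and 98.2 in KO. Samd9l, a translation-restricting factor, had 1867 and 474 in WT against 22.5 and 293 in KO. In Samd9l the groups did not overlap, but WT replicate 2 stood less than 2-fold above KO replicate 2, and the difference was -3.50 ± 1.31 (log2, standard error), or -1.68 without KO replicate 1 and -5.33 without KO replicate 2. Tor3a, a torsin ATPase of the endoplasmic reticulum, had 2936 and 4039 in WT against 1767 and 1602 in KO, with 48.3% left. Epsti1 was near the limit of detection, with 4.27 and 14.7 in WT against 0 and 0.90 in KO. Its summed reads were 1 in KO and 20 in WT, a ratio of 4.95% (exact 95% interval 0.120 to 31.0). Sp100 and Epsti1 were the 2 members with both KO libraries at or under 3 reads, and they entered the fit only through their WT values.

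**Figure D3:**
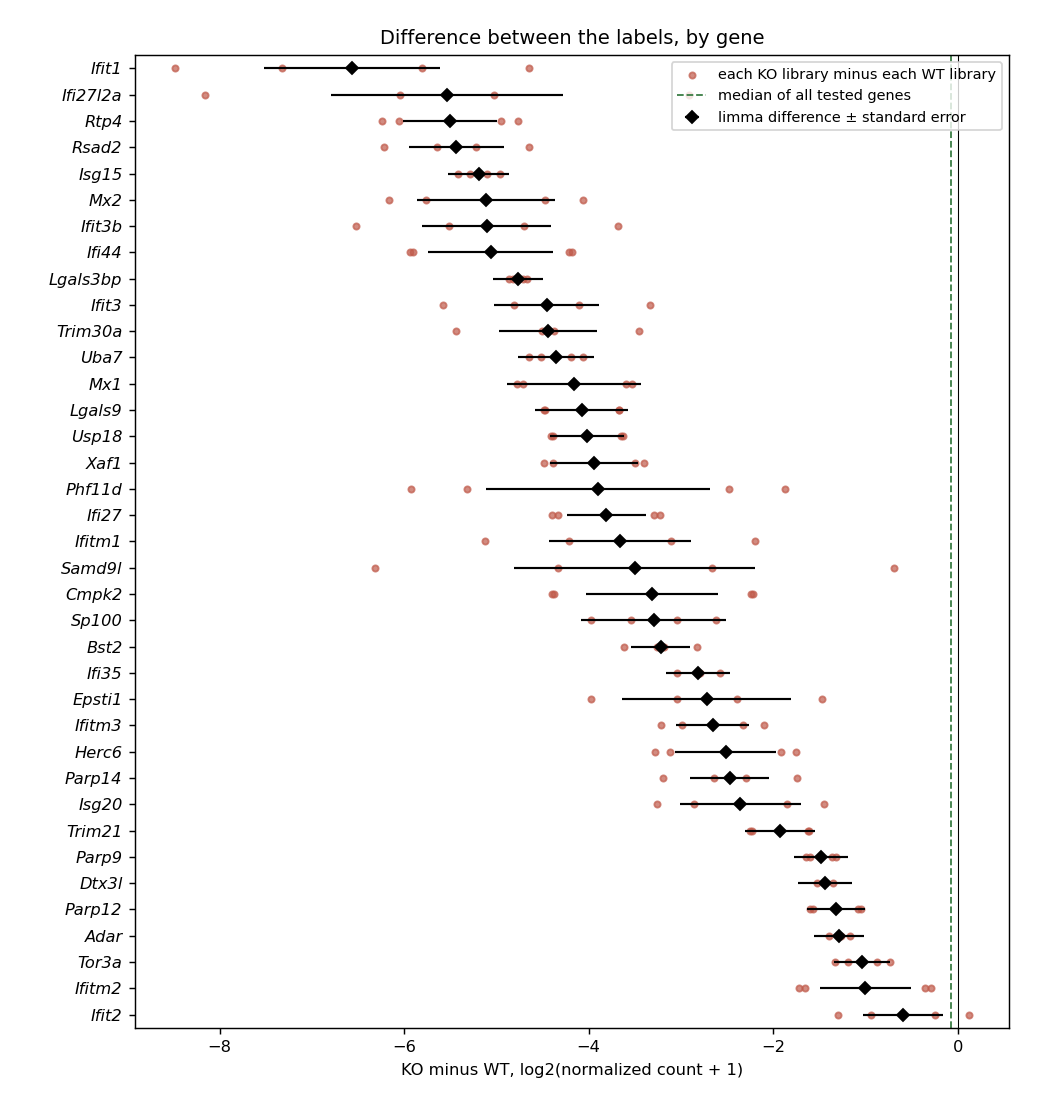
Difference of each member between KO and WT on the scale of log2(normalized count + 1), ordered by size. Black diamonds with bars are the limma estimate with its standard error, red points are the 4 differences between single KO and WT libraries, and the dashed line is the median of all tested genes at -0.07. One red point lies right of 0, KO replicate 2 minus WT replicate 2 for Ifit2.

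A gap of more than 2-fold separated the lowest WT library from the highest KO library in 33 of the 37 members, as in 8.29% of all genes tested. The median difference of the members was similar for every pairing of single libraries, at -3.54 and -3.50 against WT replicate 1 and -3.54 and -3.40 against WT replicate 2. Libraries with the same label were less far apart. The WT libraries differed by more than 2-fold in 6 members, 5 of them higher in replicate 1, where 13.7% of all genes were more than 2-fold higher in WT replicate 1 and 9.99% in WT replicate 2. The KO libraries differed by more than 2-fold in 17 members, 8 higher in replicate 1 and 9 in replicate 2, where the shares over all genes were 16.6% and 21.7%. Within WT, 23 of the 37 members were higher in replicate 1, among them all 4 IFIT genes, while all 4 genes of the IFITM and tetherin role were higher in replicate 2. Of all genes tested, 46.2% were higher in WT replicate 1.

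**Figure D4:**
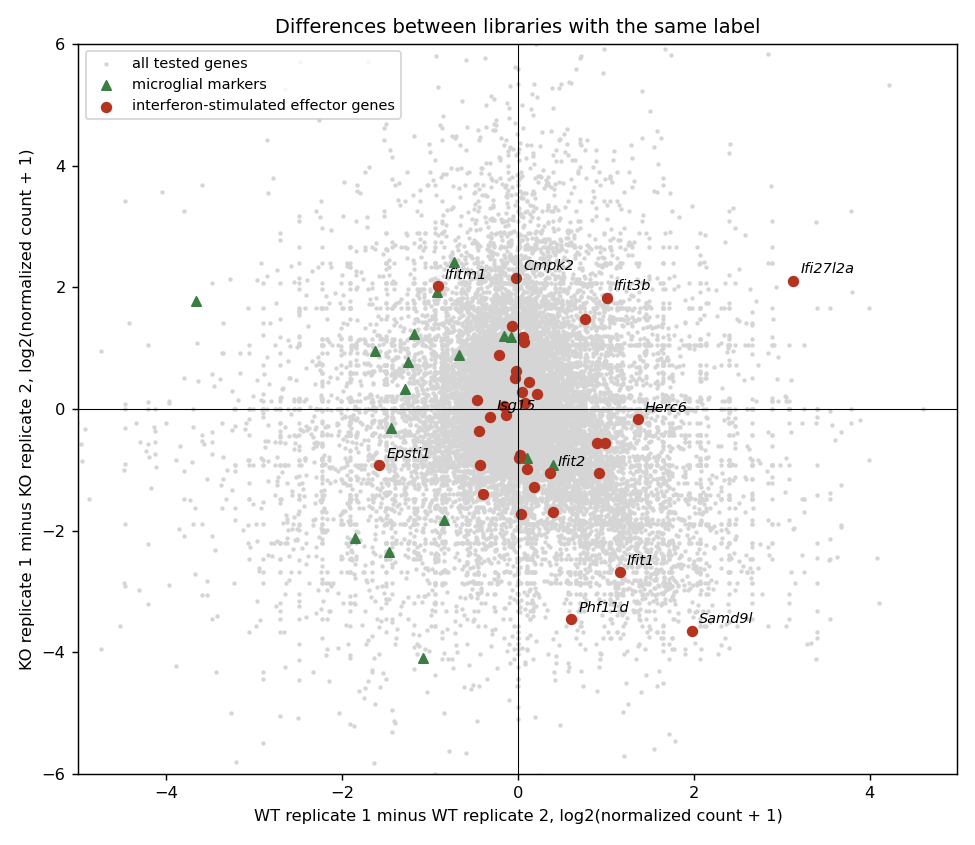
Differences between the WT libraries (horizontal axis) and between the KO libraries (vertical axis) on the scale of log2(normalized count + 1), for all tested genes in grey, microglial markers as green triangles and the 37 members in red. Grey points beyond the axes are not drawn. Most members lie near the vertical line, with Ifi27l2a, Samd9l and Herc6 far to the right and Epsti1 to the left, and most green triangles lie left of the line.

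Per length, the order of the members in WT was led by Ifitm3 at 1043 FPKM, then Bst2 at 374, Ifi27 at 331, Ifit3 at 275 ± 108 (SD, n = 2) and Ifitm2 at 246. Bst2, Ifi27 and Ifit3 overlapped in their WT libraries, which ran from 325 to 423, from 317 to 346 and from 198 to 351 FPKM, and Ifitm2 lay within the range of Ifit3. Isg15 at 141 and Lgals3bp at 124 followed. Sp100 at 0.082, Epsti1 at 0.198 and Mx1 at 0.960 FPKM were the lowest. In KO the order was Ifitm3 at 165, Ifitm2 at 129, Bst2 at 38.9, Ifi27 at 24.0 and Tor3a at 20.4 FPKM. Ifitm2 moved from the fifth place to the second and Ifit2 from the nineteenth to the sixth, while Ifit1 moved from the eleventh to the twenty-sixth. Neighbours overlapped in KO too. Ifitm3 had 207 and 123 FPKM there beside 182 and 77.1 for Ifitm2, Ifi27 had 31.8 and 16.2 with Tor3a between them, and Ifit2 had 8.22 and 18.8 beside 18.4 and 7.26 for Ifit3, so these places rest on single libraries. The sum over the 37 members was 3189 and 3017 FPKM in WT against 558 and 362 in KO.

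The rest of the interferon pathway was read from lists of 41 further genes, and 31 of them were tested. In limma, 17 of the 31 were lower in KO at an unadjusted p under 0.05 and 0 were higher. Over all genes 9.18% were lower at that threshold, and this share stands beside each such count below. The median difference of the 31 was -1.19 on the log2 scale, and 0 passed after adjustment over all genes. DESeq2 called 12 lower by adjusted p, where 3.63% of all genes were called lower. Of the ligands, 1 of 10 was listed, Ifnk, with at most 1 read in a library. The other 9 interferon genes were not analysed here. Among the receptors, 4 of 6 were lower at an unadjusted p under 0.05 in limma. Ifnar2, a chain of the type I receptor, had 1082 and 994 normalized counts in WT against 552 and 451 in KO, while its partner Ifnar1 had 1619 and 2064 in WT against 2154 and 2303 in KO. Ifngr1 of the type II receptor had 2003 and 2514 in WT against 1122 and 967 in KO, beside 804 and 1243 in WT against 838 and 1236 in KO for Ifngr2. Ifnlr1, of the type III receptor, had 37.3 and 46.9 in WT against 7.49 and 4.51 in KO. All 6 receptors differed less than the median member.

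None of the 3 receptor kinases passed the unadjusted threshold in limma. Jak1 had 3448 and 2837 normalized counts in WT against 4044 and 3806 in KO, Tyk2 had 543 and 585 in WT against 490 and 709 in KO, and Jak2 had 1730 and 1179 in WT against 701 and 1152 in KO. Of the transcription factors, 7 of 8 were lower at an unadjusted p under 0.05 in limma, the exception being Irf3. Irf7, which is itself induced by interferon and drives interferon genes, had 1576 and 1103 normalized counts in WT against 35.3 and 20.7 in KO, a difference of -5.55 ± 0.46 (log2, standard error). Stat2 had 2503 and 2725 in WT against 358 and 323 in KO, and Irf9 had 2211 and 2463 in WT against 823 and 352 in KO. For both of these parts of the complex that binds the response element the groups did not overlap. Irf3, which is held ready in most cells and not induced by interferon, had 751 and 944 in WT against 892 and 821 in KO.

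Among the sensors of viral nucleic acid, 4 of 9 were lower at an unadjusted p under 0.05 in limma, namely Zbp1, Dhx58, Ddx58 and Ifih1. Mb21d1 was the 1 sensor with a positive difference, at 2.13 and 18.4 normalized counts in WT against 15.0 and 56.8 in KO, and its groups overlapped. Zbp1 had 65.1 and 187 normalized counts in WT against 1.07 and 1.80 in KO, and Dhx58 had 445 and 399 in WT against 8.56 and 21.6 in KO. Ddx58, which encodes RIG-I, had 3151 and 2380 in WT against 739 and 830 in KO. Mavs, the adaptor below it, had 949 and 1170 in WT against 901 and 580 in KO and did not pass that threshold. Of the feedback regulators 2 of 5 were lower at that threshold, Socs3 and Ptpn6. Socs3 had 1302 and 2340 in WT against 858 and 680 in KO.

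Other antiviral effectors outside the set gave 16 of 23 tested genes lower at an unadjusted p under 0.05 in limma, where 9.18% of all genes were. Their median was -1.94 on the log2 scale. They ranged from Oas1a at -6.56, an oligoadenylate synthetase, to Serinc3 at 0.25. Relatives of the members that share a family name gave 7 of 24 tested genes lower and 2 higher, with a median of -1.07. Sp140 had the lowest difference of these, at 8.54 and 28.5 normalized counts in WT and 0 in both KO libraries. Lgals1, a galectin, had the highest, at 3989 and 5917 against 9039 and 18369 in KO. Some relatives were lower like their member. Trim30d differed by -3.36 beside Trim30a at -4.44, and Ifit1bl2 by -3.02 beside Ifit1, while Ifi27l2b and Phf11b were at 0 in both KO libraries. Others were not lower. Beside Tor3a at -1.03, the torsins Tor1a, Tor1b and Tor2a differed by 0.33, 0.29 and 0.80, beside Adar at -1.28 its relative Adarb1 differed by 0.25, and Uba1, the activating enzyme for ubiquitin, differed by 0.52 beside Uba7 at -4.35. These relatives were picked after their values were seen. Whether members and relatives differed was not tested, because the members were chosen by this contrast. These lists were put together with earlier results of the same data known.

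**Figure D5:**
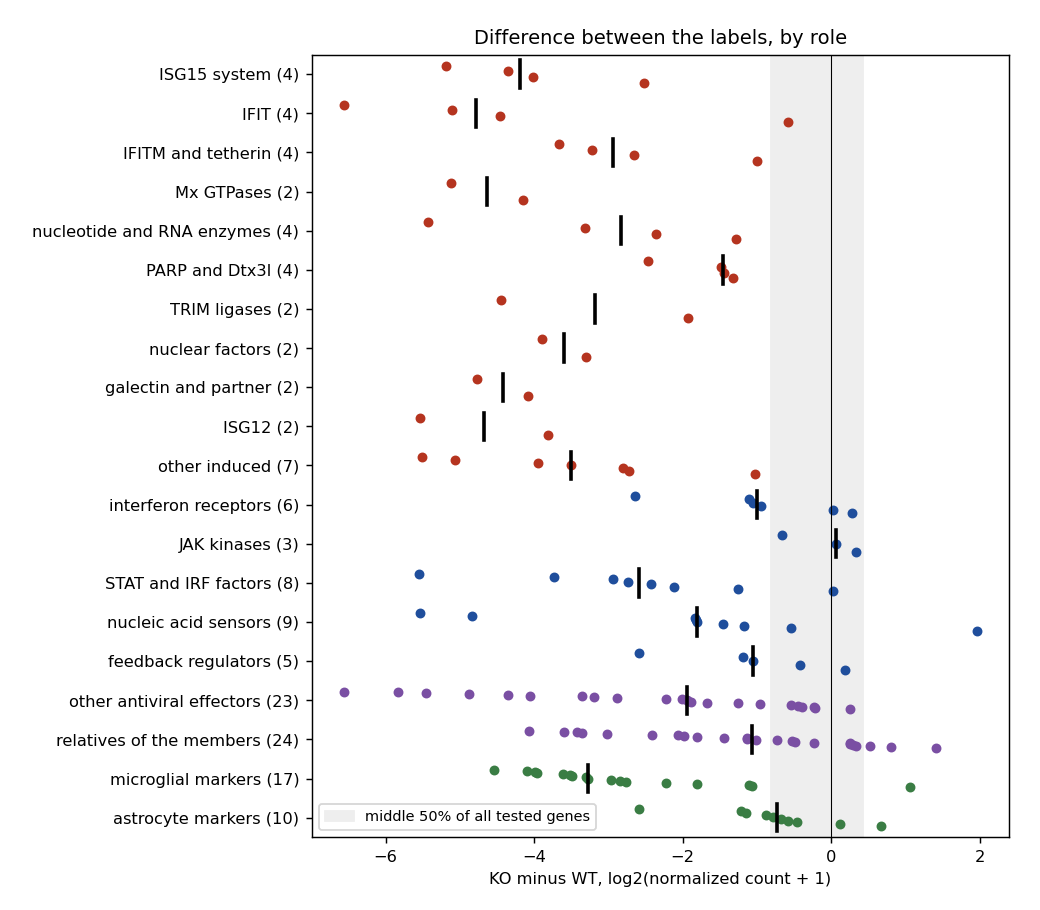
Difference between KO and WT on the scale of log2(normalized count + 1) for each gene, by role, with the number of tested genes in brackets. Red points are the 37 members, blue points pathway genes, purple points other effectors and relatives, green points cell type markers, black bars are medians and the grey band holds the middle 50% of all tested genes. The IFIT role spans the plot from Ifit1 at -6.56 to Ifit2 at -0.59, and the kinases lie around 0.

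Members that held the response-element pair had a median difference of -4.44 (n = 11), those with a window and no pair -3.30 (n = 17), and those without a window -4.02 (n = 9), all on the log2 scale. Ifitm2 and Trim21 held a pair and were among the members that differed less. Among genes outside the set, 495 tested genes held a pair, and 34.3% of them had both KO libraries below both WT libraries, with a median of -0.17. For 12965 other genes with a window and no pair these were 25.2% and -0.03. More than 4-fold lower were 16.2% of the former and 7.62% of the latter, beside 29 of the 37 members and 7.76% of all genes. The 29 were 9 of the 11 members with a pair, 13 of the 17 with a window and no pair, and 7 of the 9 without a window. Sp100 and Epsti1, with 1 KO read each, are among the 29. The split of the members carries no test, because they were chosen on this contrast. Ifit3 and Ifit3b, with their identical stretch, both count among the 11. Only the 37 members were taken out of the genes outside the set, so further interferon-induced genes may remain there. Whether the element had a part in these differences was not tested.

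Most markers of microglia moved with the label too. Of 17 tested markers of microglia, the resident immune cells of the brain, 12 were lower in KO at an unadjusted p under 0.05 in limma. Over all genes 9.18% were lower at that threshold. The median of the microglial markers was -3.27 on the log2 scale, and Siglech was not analysed here. Their summed level was 80.8 and 130 FPKM in WT against 27.4 and 17.6 in KO. In 15 of the 17 markers both KO libraries lay below both WT libraries, where 25.4% of all genes tested did so. Less than 10% of the WT level was left for 9 of the markers. A few markers were near the floor or did not follow the label. P2ry12 had 6.40 and 4.60 normalized counts in WT against 0 and 0.90 in KO, Tmem119 overlapped at 2.13 and 38.6 against 8.56 and 1.80, and Gpr34 was higher in KO at 2.14 and 4.51 against 1.07 and 0.92 in WT. C1qa had the lowest difference of these markers, -4.54. Between the WT libraries 15 of the 17 markers were higher in replicate 2, with a median of -1.08 for replicate 1 minus replicate 2. Over all genes tested, 46.2% were higher in WT replicate 1. The median of the members was 0.06, and they were split. All 4 IFIT genes were higher in WT replicate 1, and all 4 genes of the IFITM and tetherin role in WT replicate 2. Of all 37 members, 23 were higher in WT replicate 1. The part of microglia in the lower levels of the members was not tested. Astrocyte markers had a median of -0.73, with 2 of 10 lower at an unadjusted p under 0.05 in limma, and summed to 1901 and 1773 FPKM in WT and to 3028 and 477 in KO. The summed level of the members was below that of both WT libraries in each KO library. The median difference of 7 tested neuron markers was 1.66, with a range from -0.86 for Gap43 to 2.66 for Rbfox3. Rbfox3 had 55.7 and 1.80 normalized counts in KO against 1.07 and 0.92 in WT. The summed level of the neuron list overlapped between the labels, at 27.2 and 66.3 FPKM in WT against 34.1 and 48.4 in KO. Medians were -0.40 for oligodendrocyte, -0.05 for endothelial and -0.87 for mural and meningeal markers. The oligodendrocyte list summed to 153 and 228 FPKM in WT against 370 and 231 in KO, unlike its median. The part of these cells was not tested.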

How the data were processed

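RNA-seq of 2 WT and 2 Tet1 KO cultures was analysed, with groups taken from the sample labels. The authors aligned reads to mm10, and the aligner, the counting program and the strand setting are not given in the sources used here. The deposited signal value of each gene is a read count divided by the size factor of its library, although the table is named for FPKM. Whole reads were recovered for 100% of values, within 0.01 read. Columns of the authors' own means, fold changes and p-values were not used, and 0 sample columns were left unmapped. For FPKM, recovered reads were divided by gene length and by the reads on genes. limma 3.58.1 in R 4.3.3 (variance trend, no block) was fitted to log2(normalized count + 1), where changes of low genes come out too small. Genes averaging 1 or more, 22094 in number, were kept, and p was adjusted by Benjamini-Hochberg. With 2 libraries a group, p-values measure only the spread between these libraries. edgeR 4.0.16 (quasi-likelihood, TMM) and DESeq2 1.42.0 took the recovered reads as input, and the adjusted p of DESeq2 was NA for 4712 genes, Epsti1 among them. The tools were tried on simulated data. All 37 members had the positions of GENCODE M21, and 9 of them overlap a gene on the opposite strand. Promoter sequences came from RefSeq. The members and all gene lists were chosen with earlier results of these data known. All members and the pathway genes could be named, and from other lists only the extremes, except that Gfap, P2ry12, Tmem119 and several relatives of members were named after their values were seen. Alternatives changed the pseudocount, the filter, the scaling, the model and the libraries used. Some results are not reported here.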

Additional observations from a re-analysis of the deposited data

How the results depend on the processing

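The direction of each of the 37 members was the same in all 517 values under the alternatives, of which 504 moved by less than the spread between replicates. Much of this was fixed in advance. The filters, the variance trend and the replicate block cannot change a difference of group means. Leaving out a library moves a difference by only part of the gap between replicates. It cannot reverse a member whose KO libraries both lay below both WT libraries. Both counts are therefore no measure of robustness. The median difference of the members was -3.66 and became -3.97 with a pseudocount of 0.1, -3.28 with a pseudocount of 5 and -3.35 with quantile normalization, which shifted the median of all genes from -0.07 to 0.06. Leaving out one library gave medians from -3.84 to -3.45 and 26 to 33 members lower at an unadjusted p under 0.05 in limma in place of 35, with 26 when either WT library was left out. Over all genes, leaving out WT replicate 1 gave 862 genes lower at that threshold and leaving out WT replicate 2 gave 897, up to 3026 without KO replicate 1, in place of 2028. The fold of 16 members moved by over 1.5 times when one library was left out, 14 of them with a KO library and 4 with a WT library. The widest ranges were -5.33 to -1.68 for Samd9l, -5.62 to -2.17 for Phf11d and -7.10 to -3.97 for Ifi27l2a, and Ifit2 came to -0.06 without KO replicate 1. A lone library is assumed to vary like the other group. By adjusted p, limma and edgeR called 0 genes and DESeq2 1088. With the replicate number as a block, 35 members and 1821 genes were lower at an unadjusted p under 0.05 and 0 genes passed after adjustment. The labels do not say whether same-numbered libraries share more than a number. Their deviations correlated at -0.084 over 22094 genes, which with 2 libraries a group cannot show whether they were paired. Sp100 and Epsti1, with 1 read in KO, moved most with the pseudocount, from -5.32 to -1.69 and from -4.67 to -1.32. The counting intervals for Mx1, Sp100 and Epsti1 leave out the spread between cultures.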
